A study of Mus musculus with 10 samples.

Results

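The genes of MHC class II antigen presentation were followed through the dasatinib escalation of Ph+ acute lymphoblastic leukaemia cells of the mouse. The set held 10 of the 29955 genes in the deposited count table, chosen by symbol: the invariant chain Cd74, the class II chains H2-Aa, H2-Ab1 and H2-Eb1, the peptide-loading genes H2-DMa, H2-DMb1, H2-DMb2, H2-Oa and H2-Ob, and the coactivator Ciita. All 10 symbols were found. RNA was sequenced from 10 libraries of a line that carries BCR-ABL1 p185, the fusion kinase that dasatinib inhibits. The dasatinib 1x group (n = 3, A to C) and the dasatinib 16x group (n = 3, A to C) had grown out at the dasatinib steps labelled IC90 1x and 16x, reached by raising the dose at each outgrowth. DMSO 1x and DMSO 16x (1 library each) were carried with the DMSO vehicle and labelled by the same steps, and the parental line (n = 2, A and B) was the starting line. All groups share the BCR-ABL1 p185 background, all libraries descend from a single parental line, and the labels do not say whether drug was present when RNA was taken. The parental and DMSO libraries together are called drug-free (n = 4).

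Class II molecules are surface αβ dimers that present peptides from the endosomal pathway to CD4+ T cells. Their chains assemble in the endoplasmic reticulum with the invariant chain, which blocks the peptide groove and directs the complex to endosomes, where proteases trim it to the CLIP fragment. H2-DM exchanges CLIP for other peptides, and H2-DO, best known from B cells, restrains H2-DM. Ciita does not bind DNA itself: it is recruited by RFX, CREB and NF-Y proteins on the X and Y boxes upstream of class II genes. Progenitor B cells are known for little class II and mature B cells for much of it.

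The promoters of 2 class II chains and 3 peptide-loading genes are shown so that their boxes can be set beside the different patterns of these genes over the libraries. The RefSeq promoter table (GRCm38.p6) held 8 promoters of 7 of the 10 members. The stretches below are the 150 bases before the annotated start, read 5′ to 3′ on the gene's strand, with capitals for the Y box core TGATTGG and for the X box core, which was searched as AAC, 3 free bases and TGATG. They are H2-DMb1 (chr17:34153041-34153190, plus strand), H2-DMb2 (chr17:34145099-34145248, plus strand), H2-Ob (chr17:34238755-34238904, plus strand), H2-Eb1 (chr17:34305717-34305866, plus strand) and H2-Aa (chr17:34287824-34287973, minus strand).
H2-DMb1: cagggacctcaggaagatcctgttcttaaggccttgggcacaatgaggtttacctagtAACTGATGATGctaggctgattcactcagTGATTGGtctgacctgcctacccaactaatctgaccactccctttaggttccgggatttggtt
H2-DMb2: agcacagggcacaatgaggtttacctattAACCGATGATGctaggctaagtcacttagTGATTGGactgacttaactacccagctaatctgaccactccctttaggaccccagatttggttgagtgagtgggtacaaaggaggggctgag
H2-Ob: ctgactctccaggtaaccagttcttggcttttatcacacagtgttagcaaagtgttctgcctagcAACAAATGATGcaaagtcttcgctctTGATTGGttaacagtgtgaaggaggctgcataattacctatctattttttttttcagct
H2-Eb1: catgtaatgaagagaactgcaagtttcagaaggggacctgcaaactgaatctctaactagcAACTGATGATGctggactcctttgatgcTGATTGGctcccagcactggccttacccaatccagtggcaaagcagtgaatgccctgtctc
H2-Aa: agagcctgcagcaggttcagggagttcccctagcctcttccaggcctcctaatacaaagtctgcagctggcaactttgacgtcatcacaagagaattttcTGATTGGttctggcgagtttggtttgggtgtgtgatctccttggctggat

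Within 250 bases before the start, on either strand, 6 of the 7 members held the Y box core, against 7.23% of the 32851 promoters in the table. The X box core was found in 4 of the 7, against 0.539% of all promoters. The 4 members with both cores were H2-DMb1, H2-DMb2, H2-Ob and H2-Eb1, of 16 such promoters in the table (0.0487%). H2-Aa and H2-Oa held the Y box core alone, and the H2-DMa promoters held neither string in this window. The H2-DMa promoters belong to different annotated starts, and which start these cells use was not tested. Their lack of the strings therefore does not show that H2-DMa has no such boxes. The motifs were chosen with class II promoters in mind, so these shares describe the sequences and are no test.

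Library totals ran from 29049760 to 45813092 counts. The cells carried the labelled lineage: the pro-B and pre-B markers Cd79a, Cd79b, Vpreb1, Igll1, Rag1, Dntt, Pax5 and Blnk exceeded 1 CPM (counts scaled to library size) in every library, and Ebf1 stayed under 1 CPM in all libraries. Of the dendritic markers, 7 of 8 were under 1 CPM everywhere, with Clec9a and Siglech at 0, and their summed level was 2.75 to 3.40 CPM in dasatinib 1x, 2.65 to 7.11 CPM in dasatinib 16x, 6.05 CPM in DMSO 1x, 5.90 CPM in DMSO 16x and 4.83 to 5.42 CPM in parental libraries. Of the macrophage markers C1qa and C1qb were at 0, and the sum of that list was 4.19 to 8.88 CPM over all groups. The sum of the mature B cell markers was 146 to 161 CPM in dasatinib 1x, 166 to 233 CPM in dasatinib 16x, 218 CPM in DMSO 1x, 284 CPM in DMSO 16x and 162 to 167 CPM in parental libraries, so it was highest in DMSO 16x, as were several members below. Its part in those results was not tested.

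Per kilobase of exon, 2 of the 10 genes stood far above the rest in each group. Cd74 had a group mean of 15.9 CPM per kb in dasatinib 1x, 45.1 in dasatinib 16x, 19.9 in DMSO 1x, 25.3 in DMSO 16x and 13.6 in parental libraries, and H2-Ob, the β chain of H2-DO, had 14.7, 14.5, 12.3, 10.2 and 13.1 CPM per kb in the same order. Cd74 and H2-Ob overlapped between libraries in dasatinib 1x only. The next level was H2-DMb2 (0.562 to 2.29 CPM per kb over the group means), H2-DMb1 (0.585 to 1.46), H2-Oa (0.367 to 0.936) and H2-DMa (0.285 to 0.814), whose order differed between groups. The antigen-presenting chains and Ciita were lowest, with H2-Aa at 0.0373 to 1.09 CPM per kb, H2-Eb1 at 0.0143 to 0.311, H2-Ab1 at 0.00674 to 0.199 and Ciita at 0.00409 to 0.251. In DMSO 16x the single library put H2-Aa (1.09 CPM per kb) between H2-DMb2 (1.40) and H2-Oa (0.936), while in dasatinib 16x it was far below both (0.104 for H2-Aa, 2.29 for H2-DMb2 and 0.658 for H2-Oa).

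**Figure D1:**
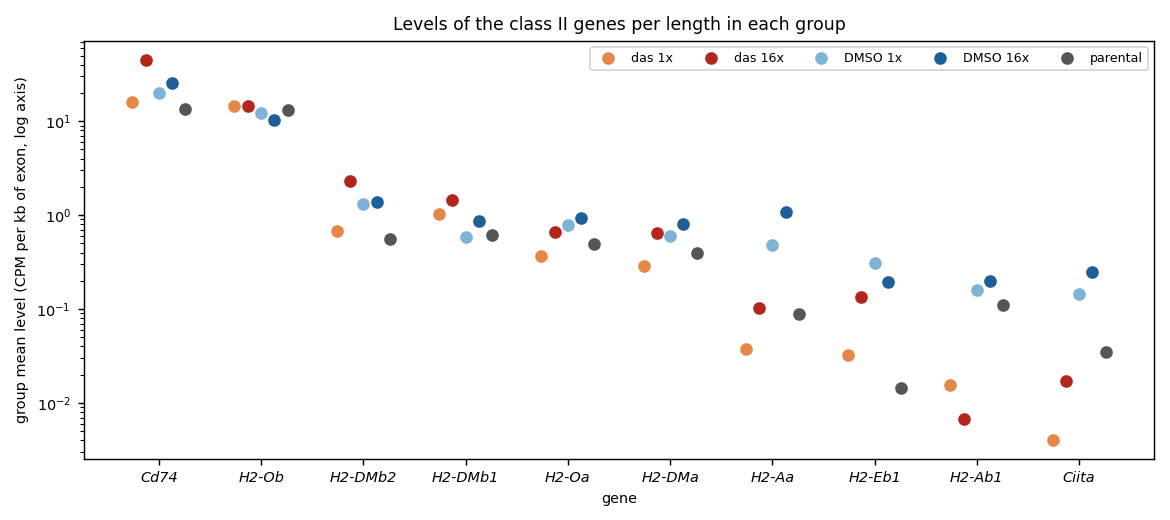
Group mean level of each of the 10 genes in CPM per kilobase of exon (y axis, log scale), with 1 point per group (dasatinib 1x, dasatinib 16x, DMSO 1x, DMSO 16x, parental). Cd74 and H2-Ob lie between 10.2 and 45.1 CPM per kb in all groups, and H2-Aa, H2-Eb1, H2-Ab1 and Ciita spread over the widest range between groups.

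The filter on low counts was passed by 8 of the 10 genes, and H2-Aa and H2-Ab1 were too low to be tested with it. Ciita passed through its 2 DMSO and 2 parental libraries alone, and H2-Eb1 through 2 dasatinib 16x and both DMSO libraries, so a difference was built into their passing, and the counts that follow are read against the share of all 12282 tested genes that was called. In dasatinib 16x against drug-free libraries, 3 members were called higher (Cd74, H2-DMb1, H2-DMb2) and 0 lower, where 16.1% of all genes were called (7.79% higher and 8.33% lower), and for 4 of the 8 tested members, the same 3 and H2-Ob, all 3 dasatinib 16x libraries lay above all 4 drug-free ones, as they did for 14.3% of all tested genes. They lay below for Ciita, as for 14.0% of all tested genes, and for the untested H2-Ab1. In dasatinib 1x against drug-free libraries, 0 members were called by edgeR, where 1.96% of all genes were, with 4 members at an unadjusted p under the threshold (Ciita, H2-Ob, H2-DMa, H2-DMb1), as were 19.8% of all genes, and 1 called by DESeq2 (Ciita). In dasatinib 16x against dasatinib 1x, Cd74 alone was called, higher at 16x, where 2.13% of all genes were called and 1.21% higher. Within the drug-free class, both DMSO libraries lay above both parental libraries for 6 of the 8 tested members and for the untested H2-Aa and H2-Ab1, where 33.4% of all tested genes had this order. They lay below for H2-Ob, as for 33.3% of all tested genes, and overlapped for H2-DMb1.

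Against the DMSO library of the same step, 4 members were called in dasatinib 1x (Ciita, H2-DMb2 and H2-Eb1 lower, H2-Ob higher), where 13.5% of all genes were (6.86% higher and 6.66% lower), and 3 in dasatinib 16x (Ciita lower, Cd74 and H2-Ob higher), where 35.7% were (18.9% higher and 16.8% lower). DMSO 1x against parental gave 2 members (H2-DMb2 and H2-Eb1 higher) with 6.17% of all genes called (3.31% higher), and DMSO 16x against parental gave 5 (Cd74, Ciita, H2-DMb2 and H2-Eb1 higher, H2-Ob lower) with 30.9% (14.7% higher and 16.2% lower). These 4 comparisons each rest on 1 DMSO library, whose spread was assumed to be that of the other groups, and the dasatinib and the parental comparison of a step share it. For Ciita no dasatinib library passed the filter's cutoff, and for H2-Eb1 no dasatinib 1x or parental library did. Calls of these genes as lower in those groups are therefore not independent of the filter and are no support. The difference between steps (16x minus 1x) under dasatinib, set against that under DMSO, was called for Cd74 and H2-DMb2, where 6.74% of all genes were called and 5.37% in the same direction.

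**Figure D2:**
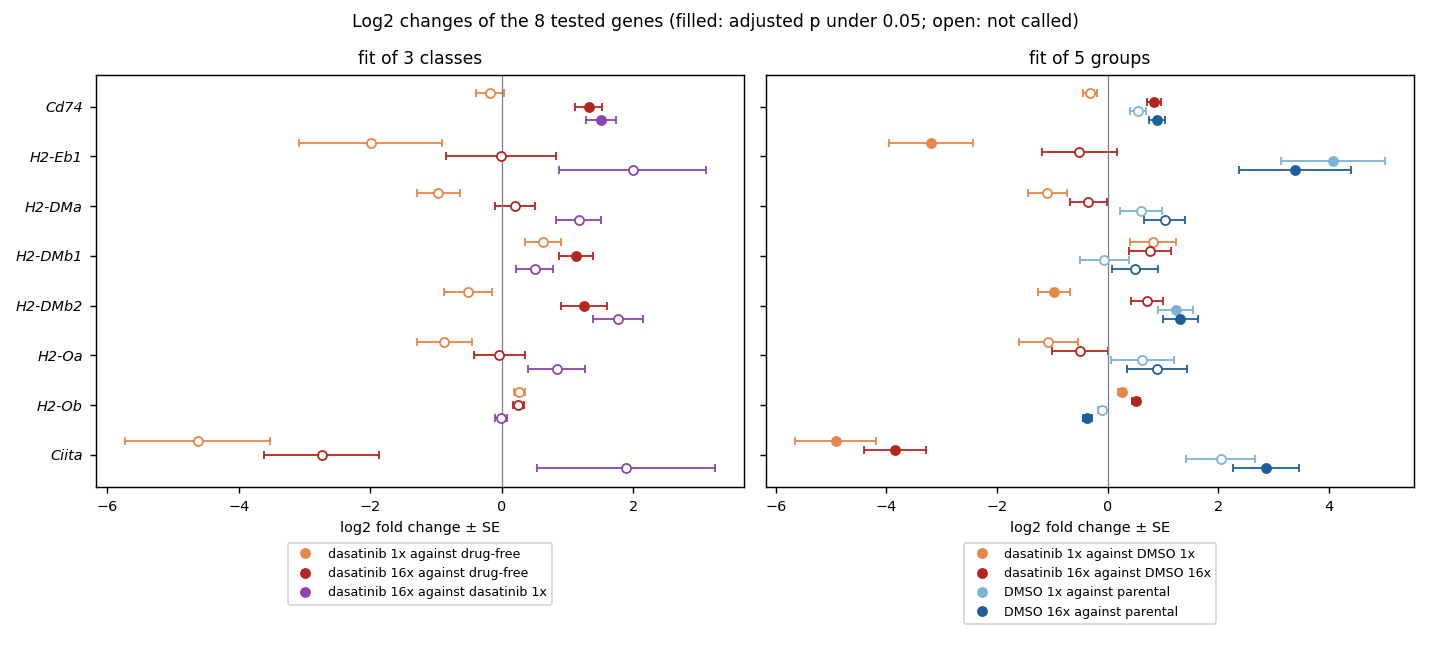
Log2 fold change with standard error (x axis) of the 8 tested genes (rows) in the 3 comparisons of 3 classes (left) and the 4 comparisons with a single DMSO library (right); filled points have an adjusted p under 0.05. Cd74, H2-DMb1 and H2-DMb2 are filled on the right of 0 for dasatinib 16x against drug-free, and Ciita is filled far to the left of 0 against both DMSO libraries.

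Cd74, the invariant chain, was highest at the late dasatinib step. Its level was 22.1, 24.7 and 20.9 CPM in dasatinib 1x A to C, 72.8, 61.5 and 57.4 CPM in dasatinib 16x A to C, 28.2 CPM in DMSO 1x, 35.8 CPM in DMSO 16x, and 18.9 and 19.5 CPM in parental A and B. All 3 dasatinib 16x libraries lay above the other 7, and the 3 dasatinib 1x libraries lay between the parental and the DMSO libraries without overlap with either. In bulk RNA, more cells with the transcript and more transcript per cell cannot be told apart. Cd74 rose at dasatinib 16x against drug-free libraries by a log2 change of 1.32 ± 0.21 (SE; adjusted p = 0.00404, edgeR quasi-likelihood test) and against dasatinib 1x by 1.50 ± 0.23 (adjusted p = 0.0151, edgeR). The second call was lost when dasatinib 1x A, B or C was left out (log2 change of 1.49, 1.57 and 1.45 with edgeR adjusted p of 0.0871, 0.0624 and 0.0898).

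Against the DMSO 16x library Cd74 rose in dasatinib 16x by a log2 change of 0.84 ± 0.13 (adjusted p = 0.001, edgeR), and it also rose in DMSO 16x against parental libraries, by 0.89 ± 0.14 (adjusted p = 0.000967, edgeR). The log2 change was 0.55 ± 0.14 in DMSO 1x against parental libraries (adjusted p = 0.0543, edgeR; 0.00519 with DESeq2), and -0.32 ± 0.13 in dasatinib 1x against DMSO 1x (adjusted p = 0.164, edgeR). The step difference of Cd74 was larger under dasatinib than under DMSO by 1.16 ± 0.19 on the log2 scale (adjusted p = 0.00661, edgeR). Cd74 lies on chromosome 18, whose 291 other tested genes had a median log2 change of 0.50 in dasatinib 16x against DMSO 16x, 0.31 in the step difference, -0.51 in DMSO 16x against parental, 0.14 in dasatinib 16x against drug-free and -0.03 in dasatinib 16x against dasatinib 1x. At the 1x step the chromosome 18 median was 0.19 in dasatinib 1x against DMSO 1x and -0.17 in DMSO 1x against parental. In dasatinib 1x against drug-free it was 0.17. The part of this chromosome-wide shift in the Cd74 values was not tested. The medians of chromosomes 16 (Ciita) and 17 (the other members) lay between -0.02 and 0.02 in all comparisons.

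The class II chains of the set, H2-Aa, H2-Ab1 and H2-Eb1, were nearly silent, and their highest levels were in the DMSO libraries. H2-Aa, the α chain of I-A, had 0, 0 and 5 counts in dasatinib 1x A to C, 6, 7 and 2 in dasatinib 16x A to C, 20 in DMSO 1x, 46 in DMSO 16x, and 3 and 4 in parental A and B. In CPM that was 0.547 in DMSO 1x and 1.23 in DMSO 16x, against at most 0.172 in any other library. Both DMSO libraries therefore lay above the other 8, and dasatinib and parental libraries overlapped. The ratio of normalised counts was 0.0823 for dasatinib 1x over DMSO 1x (exact 95% interval 0.0241 to 0.226, counting error only) and 0.0949 for dasatinib 16x over DMSO 16x (0.0492 to 0.173). With no filter, a setting in which 9.83% and 23.9% of 18621 genes were called, edgeR gave H2-Aa log2 changes of -3.52 ± 0.86 (adjusted p = 0.00595) and -3.36 ± 0.67 (adjusted p = 0.000265) in these comparisons. With no filter the change of H2-Aa was 3.61 ± 0.79 in DMSO 16x against parental libraries (adjusted p = 0.000923, edgeR), where 20.7% were called. In DMSO 1x against parental libraries it was 2.43 ± 0.86 and was not called, where 5.2% of genes were. Over the libraries left out this change ranged from 2.38 to 2.48. It was called only where a dasatinib 16x library was left out, and not where a dasatinib 1x, parental or DMSO 16x library was.

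H2-Ab1, the β chain of I-A, had 1, 1 and 0 counts in dasatinib 1x A to C, 0, 1 and 0 in dasatinib 16x A to C, 7 in DMSO 1x, 9 in DMSO 16x, and 5 and 4 in parental A and B. All 6 dasatinib libraries lay below all 4 drug-free ones in CPM (at most 0.0316 CPM in dasatinib libraries, at least 0.0957 CPM in drug-free ones). The ratio of normalised counts was 0.0941 for dasatinib 1x over DMSO 1x (exact 95% interval 0.00953 to 0.494) and 0.0323 for dasatinib 16x over DMSO 16x (0.000738 to 0.233). In dasatinib 1x H2-Ab1 was not called with no filter. Its log2 change was -3.19 ± 1.27 against DMSO 1x and -3.05 ± 0.87 against drug-free libraries (adjusted p = 0.138 for drug-free, edgeR). With no filter, edgeR called H2-Ab1 lower in dasatinib 16x against drug-free libraries (log2 change of -3.99 ± 0.95, adjusted p = 0.0228, where 8.92% of genes were called), a call lost without dasatinib 16x A or C or DMSO 1x (adjusted p of 0.091, 0.0908 and 0.0551). It was also lower in dasatinib 16x against DMSO 16x (-4.46 ± 1.30, adjusted p = 0.00873, edgeR with no filter).

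H2-Eb1, the β chain of I-E, had 2, 2 and 2 counts in dasatinib 1x A to C, 14, 4 and 11 in dasatinib 16x A to C, 19 in DMSO 1x, 12 in DMSO 16x, and 0 and 2 in parental A and B. Both DMSO libraries were above all others in CPM (0.520 in DMSO 1x and 0.322 in DMSO 16x), but dasatinib 16x A (0.308 CPM) and C (0.263 CPM) came close to DMSO 16x. Unlike H2-Aa and H2-Ab1, H2-Eb1 had all 3 dasatinib 16x libraries above all 3 dasatinib 1x libraries. It fell in dasatinib 1x against DMSO 1x (log2 change of -3.19 ± 0.76, adjusted p = 0.0156, edgeR) and rose in DMSO 1x and DMSO 16x against parental libraries (4.07 ± 0.94 with adjusted p = 0.0263 and 3.39 ± 1.02 with adjusted p = 0.0242, edgeR). With 2 counts in the parental group, the ratio of normalised counts was 18.5 for DMSO 1x over parental (exact 95% interval 4.46 to 164) and 11.4 for DMSO 16x over parental (2.55 to 105). Both calls against parental libraries were lost without parental A (edgeR adjusted p = 0.139 and 0.103). The call for DMSO 1x was also lost without parental B (0.092). DESeq2 gave H2-Eb1 no adjusted p in these 3 comparisons.

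**Figure D3:**
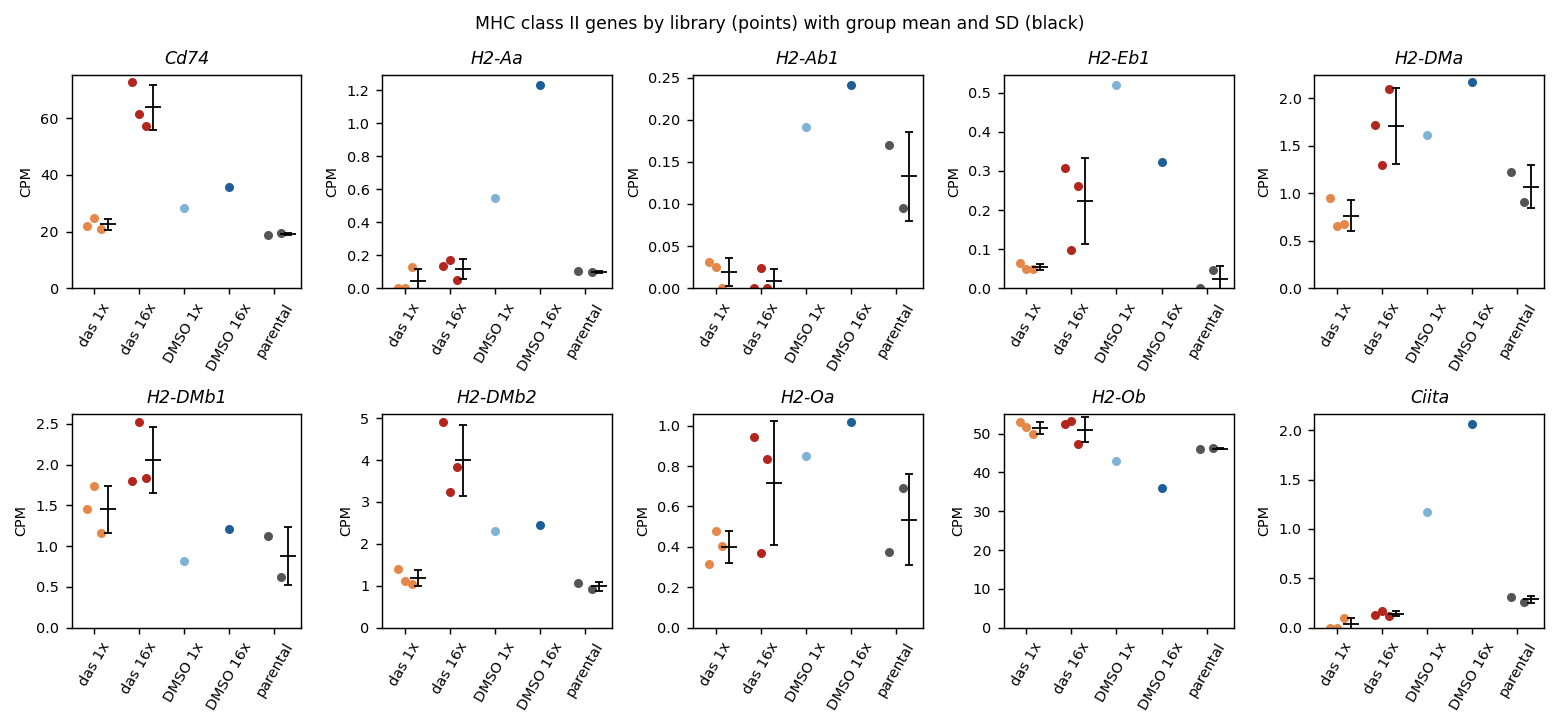
Level in CPM (y axis, from 0) of each of the 10 genes in each library (points), by group, with the group mean and SD (black) where a group has more than 1 library. Cd74, H2-DMb1 and H2-DMb2 are highest in dasatinib 16x, whereas H2-Aa, H2-Ab1, H2-Eb1 and Ciita are highest in the DMSO libraries and H2-Ob is lowest there.

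The β chains of H2-DM, which mice carry as the neighbouring copies H2-DMb1 and H2-DMb2, were higher at dasatinib 16x than in the drug-free libraries. Against the DMSO 16x library alone neither was called, with log2 changes of 0.71 ± 0.29 for H2-DMb2 and 0.77 ± 0.39 for H2-DMb1. H2-DMb2 was at 1.39, 1.11 and 1.03 CPM in dasatinib 1x A to C, 4.90, 3.23 and 3.84 CPM in dasatinib 16x A to C, 2.30 CPM in DMSO 1x, 2.44 CPM in DMSO 16x, and 1.06 and 0.909 CPM in parental A and B. The order of groups was that of Cd74 except that dasatinib 1x overlapped the parental libraries. It rose in dasatinib 16x against drug-free libraries by a log2 change of 1.25 ± 0.34 (adjusted p = 0.0367, edgeR), a call lost when any 1 dasatinib or parental library was left out (adjusted p of 0.0543 to 0.128, edgeR) or with only the 2 classes compared (0.0949). The log2 change against dasatinib 1x was 1.76 ± 0.38 (adjusted p = 0.0504, edgeR). It was called when the 5 groups were fitted apart (1.77, adjusted p = 0.00021, edgeR). H2-DMb2 also rose in DMSO 1x (1.23 ± 0.31, adjusted p = 0.0395) and DMSO 16x (1.32 ± 0.31, adjusted p = 0.00636, edgeR) against parental libraries, and it fell in dasatinib 1x against DMSO 1x (-0.97 ± 0.28, adjusted p = 0.0423, edgeR). The DMSO 1x call against parental libraries was lost without any 1 dasatinib 1x or parental library (adjusted p of 0.0508 to 0.246, edgeR), and that of DMSO 16x without parental B (0.0553). The call in dasatinib 1x was lost without dasatinib 1x B or C, dasatinib 16x C or either parental library (adjusted p of 0.0519 to 0.115, edgeR). DESeq2 did not call H2-DMb2 in dasatinib 1x against DMSO 1x (adjusted p = 0.142) or in DMSO 1x against parental libraries (0.09). Its step difference was larger under dasatinib than under DMSO by 1.68 ± 0.41 on the log2 scale (adjusted p = 0.029, edgeR), a call lost without dasatinib 1x B or C or parental A or B (adjusted p of 0.0551 to 0.0713, edgeR) and not made by DESeq2 (0.059).

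H2-DMb1 was at 1.46, 1.74 and 1.16 CPM in dasatinib 1x A to C, 1.80, 2.52 and 1.84 CPM in dasatinib 16x A to C, 0.821 CPM in DMSO 1x, 1.21 CPM in DMSO 16x, and 1.12 and 0.622 CPM in parental A and B. The 3 dasatinib 16x libraries were the highest of the 10, and the DMSO libraries overlapped the parental ones. Its rise in dasatinib 16x against drug-free libraries was 1.13 ± 0.26 on the log2 scale (adjusted p = 0.0193, edgeR), lost without dasatinib 16x B (0.95, adjusted p = 0.0662) or DMSO 1x (1.07, adjusted p = 0.0533) or with only the 2 classes compared (1.12, adjusted p = 0.0513). For dasatinib 1x against drug-free the change was 0.62 ± 0.27 (adjusted p = 0.237, edgeR). In dasatinib 16x against dasatinib 1x it was 0.50 ± 0.28 and was not called (adjusted p = 0.432, edgeR). The transcripts of the 2 copies were 83.3% identical over 1422 aligned bases with a longest identical run of 221 bases. Of the 50-base windows of H2-DMb1, 27.2% also occurred in H2-DMb2, so the division of reads between the copies is uncertain.

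H2-DMa, the α chain that pairs with either copy, was at 0.949, 0.654 and 0.681 CPM in dasatinib 1x A to C, 1.71, 1.30 and 2.10 CPM in dasatinib 16x A to C, 1.61 CPM in DMSO 1x, 2.17 CPM in DMSO 16x, and 1.23 and 0.909 CPM in parental A and B. Dasatinib 16x lay above dasatinib 1x in all libraries and overlapped the DMSO ones. The 8 comparisons did not call it: the log2 change was 0.20 ± 0.31 (adjusted p = 0.705) in dasatinib 16x against drug-free, 1.17 ± 0.34 (adjusted p = 0.121) against dasatinib 1x, and 1.03 ± 0.37 (adjusted p = 0.0513) in DMSO 16x against parental. Other settings did. With the 5 groups fitted apart, dasatinib 16x against dasatinib 1x was called (1.17, adjusted p = 0.0115, edgeR), and so it was by DESeq2 (adjusted p = 0.0456). With no filter H2-DMa was called lower in dasatinib 1x against DMSO 1x (-1.09, adjusted p = 0.0479, edgeR) and higher in DMSO 16x against parental libraries (1.04, adjusted p = 0.0433, edgeR). Against the 2 DMSO libraries alone it was called lower in dasatinib 1x (-1.31, adjusted p = 0.00382, edgeR). H2-DMa overlaps Brd2, a gene on the other strand with 155807 counts over the libraries, and the strand setting of the counting is not given in the sources used here.

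H2-DO, the restrainer of H2-DM, had a β chain far above its α chain per length (10.2 to 14.7 CPM per kb over the groups for H2-Ob and 0.367 to 0.936 for H2-Oa). H2-Ob was at 52.9, 51.6 and 49.9 CPM in dasatinib 1x A to C, 52.4, 53.2 and 47.3 CPM in dasatinib 16x A to C, 43.0 CPM in DMSO 1x, 35.9 CPM in DMSO 16x, and 46.1 and 46.2 CPM in parental A and B. All 6 dasatinib libraries were above all 4 drug-free ones, and both DMSO libraries were below the parental ones, the reverse of Ciita in both respects. The changes were small. H2-Ob rose by 0.51 ± 0.07 on the log2 scale in dasatinib 16x against DMSO 16x (adjusted p = 0.000191, edgeR) and by 0.26 ± 0.07 in dasatinib 1x against DMSO 1x (adjusted p = 0.0355, edgeR), and fell by 0.36 in DMSO 16x against parental libraries (SE 0.08, adjusted p = 0.00352, edgeR). The call for dasatinib 1x was lost without any 1 dasatinib 1x or parental library (adjusted p of 0.0565 to 0.0943, edgeR) and was not made by DESeq2 (0.0678). Against the whole drug-free class the log2 change was 0.27 ± 0.08 in dasatinib 1x (adjusted p = 0.144) and 0.25 ± 0.08 in dasatinib 16x (adjusted p = 0.0719, edgeR; 0.0362 with DESeq2).

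H2-Oa, the α chain of H2-DO, was at 0.316, 0.478 and 0.403 CPM in dasatinib 1x A to C, 0.945, 0.368 and 0.835 CPM in dasatinib 16x A to C, 0.848 CPM in DMSO 1x, 1.02 CPM in DMSO 16x, and 0.375 and 0.694 CPM in parental A and B. Dasatinib 16x B lay with the dasatinib 1x libraries and the other 2 close to the DMSO ones. The 8 comparisons did not call H2-Oa: its log2 change was -0.04 ± 0.39 in dasatinib 16x against drug-free (adjusted p = 0.961) and -0.87 ± 0.41 in dasatinib 1x against drug-free (adjusted p = 0.274, edgeR). With the 2 DMSO libraries alone as reference it was called lower in dasatinib 1x (-1.20, adjusted p = 0.0484, edgeR), where 33.8% of all genes were called.

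Ciita, the coactivator of the class II genes, was lowest in the dasatinib libraries. It had 0, 0 and 4 counts in dasatinib 1x A to C, 6, 7 and 5 in dasatinib 16x A to C, 43 in DMSO 1x, 77 in DMSO 16x, and 9 and 11 in parental A and B. In CPM the libraries ranged from 0 to 0.101 in dasatinib 1x, from 0.119 to 0.172 in dasatinib 16x, and from 0.263 to 0.307 in parental libraries, with 1.18 in DMSO 1x and 2.06 in DMSO 16x. The 5 groups did not overlap, in the order dasatinib 1x, dasatinib 16x, parental, DMSO 1x, DMSO 16x from low to high. Ciita fell in dasatinib 1x against DMSO 1x (log2 change of -4.92 ± 0.73, adjusted p = 0.00105, edgeR) and in dasatinib 16x against DMSO 16x (-3.85 ± 0.56, adjusted p = 0.000188, edgeR). All counts of dasatinib 1x were in library C. Over the libraries left out, the fitted change against DMSO 1x ranged from -8.50 (without dasatinib 1x C, which leaves the group at 0 counts, so that this value is no bound) to -4.33, and it was called each time. The ratio of normalised counts was 0.0306 for dasatinib 1x over DMSO 1x (exact 95% interval 0.00798 to 0.0843) and 0.0680 for dasatinib 16x over DMSO 16x (0.0383 to 0.115).

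Ciita also differed between the drug-free groups. It rose in DMSO 16x against parental libraries by a log2 change of 2.85 ± 0.60 (adjusted p = 0.00306, edgeR), with a ratio of normalised counts of 7.34 (exact 95% interval 4.44 to 12.7). In DMSO 1x against parental libraries the log2 change was 2.05 ± 0.63 (adjusted p = 0.0795, edgeR), and with no filter it was called (2.04, adjusted p = 0.0343, edgeR). The ratio over parental libraries was 0.128 for dasatinib 1x (0.0319 to 0.383) and 0.500 for dasatinib 16x (0.249 to 0.994), intervals of counting error only. Against the drug-free class as a whole Ciita was not called, at -4.62 ± 1.11 in dasatinib 1x (adjusted p = 0.072) and -2.74 ± 0.88 in dasatinib 16x (adjusted p = 0.0632, edgeR), while DESeq2 called both (adjusted p of 0.00133 and 0.021). Ciita overlaps Dexi, a gene on the other strand with 2350 counts over the libraries.

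The members thus fell into different patterns over the same libraries. H2-Aa was above 0.2 CPM where Ciita was above 1 CPM, in the DMSO 1x and DMSO 16x libraries, and at most 0.172 CPM in the other 8. Cd74 and H2-DMb2 shared the highest 3 libraries, which were dasatinib 16x A to C, and had the DMSO libraries next. At dasatinib 16x Cd74 was at 57.4 to 72.8 CPM and Ciita at 0.119 to 0.172 CPM. The ratio of Ciita to its parental level was 0.500 (0.249 to 0.994, counting error only), from 18 and 20 counts. Whether the levels of Cd74 and Ciita are related was not tested.

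**Figure D4:**
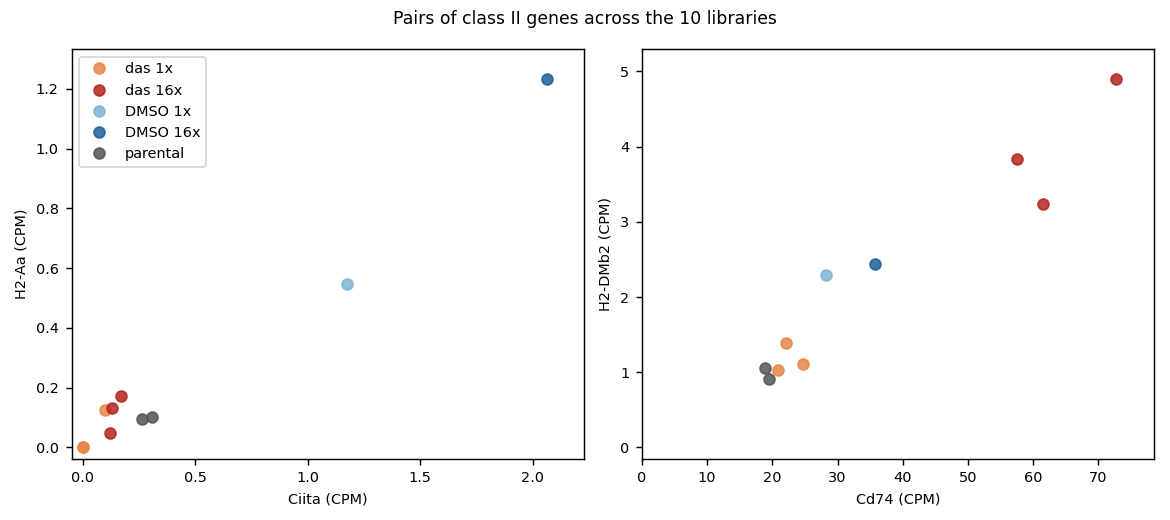
Level of H2-Aa against Ciita (left) and of H2-DMb2 against Cd74 (right), in CPM, with 1 point per library coloured by group. On the left the DMSO libraries stand apart at 1.18 and 2.06 CPM of Ciita; on the right the dasatinib 16x libraries stand apart at 57.4 to 72.8 CPM of Cd74.

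The genes whose log2 level followed that of Cd74 most closely over the 10 libraries, among 8488 tested genes with a mean of at least 5 CPM, were P2ry10, a G protein-coupled receptor of lymphocytes (Pearson r = 0.990), Igj, the joining chain of polymeric antibodies (0.983), Rhof, a small GTPase (0.982), Lta, the cytokine lymphotoxin α (0.982), and Capg, an actin-capping protein (0.978). These correlations describe 10 libraries that share a parental line and fall into groups, so no test was made. Lta averaged 135 CPM in dasatinib 1x, 389 CPM in dasatinib 16x, 191 CPM in DMSO 1x, 275 CPM in DMSO 16x and 134 CPM in parental libraries. Igj averaged 2.51 CPM in dasatinib 1x, 16.0 CPM in dasatinib 16x, 3.56 CPM in DMSO 1x, 5.20 CPM in DMSO 16x and 2.41 CPM in parental libraries. Both had the group order of Cd74 at the upper end: dasatinib 16x, then DMSO 16x, then DMSO 1x.

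Among the genes that act on class II transcription, 0 of 16 tested were called higher and 4 lower in dasatinib 16x against drug-free libraries, where 8.33% of all genes were called lower, with a list median of -0.13 on the log2 scale beside -0.0037 for all genes. They were Ikzf3, Pax5, Creb1 and Nfya. Ikzf3, a lymphoid transcription factor, fell to a mean of 104 CPM in dasatinib 16x, against 163 CPM in drug-free libraries (log2 change of -0.64 ± 0.09, adjusted p = 0.00264, edgeR). Pax5, the B lineage commitment factor, fell to 113 CPM in dasatinib 16x, against 148 CPM in drug-free libraries (-0.39 ± 0.07, adjusted p = 0.005, edgeR). Creb1 and Nfya, of which Nfya is a subunit of the Y box factor NF-Y, fell by 0.14 and 0.13 on the log2 scale. Rfx5, the DNA-binding subunit of RFX, was not called there, at 33.0 CPM in dasatinib 16x and 36.3 CPM in drug-free libraries. Rfx5 was called in dasatinib 16x against DMSO 16x and in DMSO 16x against parental libraries. Rfxap, also of RFX, was called in both dasatinib groups against the DMSO library of the step and in DMSO 1x against parental. Each of these comparisons rests on a single DMSO library, and the shares of all genes called in them are given above. In dasatinib 1x against drug-free libraries, 0 of the 16 were called. Rfx5, Rfxap and the gene of the next sentence were named after their values were seen. Zbtb32, known in mouse as a repressor of Ciita, averaged 7.95 CPM in dasatinib 1x, 52.4 CPM in dasatinib 16x, 50.3 CPM in DMSO 1x, 99.5 CPM in DMSO 16x and 12.3 CPM in parental libraries. Its relation to the Ciita level was not tested.

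On the interferon γ input to Ciita, 2 of 9 tested genes were called higher and 0 lower in dasatinib 16x against drug-free libraries, where 7.79% of all genes were called higher, with a list median of -0.02. Socs1, the feedback inhibitor of interferon signalling, rose to 23.4 CPM in dasatinib 16x, against 14.1 CPM in drug-free libraries (log2 change of 0.73 ± 0.07, adjusted p = 0.000287, edgeR). Ifngr1, a chain of the interferon γ receptor, rose to 90.9 CPM in dasatinib 16x, against 69.9 CPM in drug-free libraries (0.38 ± 0.07, adjusted p = 0.00664, edgeR).

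Of the genes for class II peptide processing and turnover, 3 of 15 tested were called higher and 0 lower in dasatinib 16x against drug-free libraries, where 7.79% of all genes were called higher, with a list median of 0.05, and the same 3 were called higher against dasatinib 1x, where 1.21% of all genes were. Ctss, the protease that trims the invariant chain, rose to 63.6 CPM in dasatinib 16x, against 48.2 CPM in drug-free libraries (log2 change of 0.40 ± 0.07, adjusted p = 0.00478, edgeR). Ctsz, another lysosomal cathepsin, rose to 112 CPM in dasatinib 16x, against 78.7 CPM in drug-free libraries (0.51 ± 0.06, adjusted p = 0.000799, edgeR). March1, a ubiquitin ligase that removes class II from the surface, rose to 4.14 CPM in dasatinib 16x, against 2.14 CPM in drug-free libraries (0.95 ± 0.20, adjusted p = 0.012, edgeR). In DMSO 16x against parental libraries 6 of the 15 were higher and 2 lower, where 14.7% of all genes were higher and 16.2% lower. Among them, named after its values were seen, Ctsh, a lysosomal aminopeptidase, rose to 10.2 CPM in DMSO 16x, against 0.560 CPM in parental libraries (4.17 ± 0.32, adjusted p = 1.86e-06, edgeR). Ctsh fell in dasatinib 16x (mean 2.06 CPM) against DMSO 16x, by a log2 change of -2.31 ± 0.26. That was the direction of Ciita in that comparison, whereas more genes of this list were called higher than lower there.

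Of the neighbours of the class II genes on chromosome 17, 4 of 7 tested were called higher and 0 lower in dasatinib 16x against drug-free libraries, where 7.79% of all genes were called higher, with a list median of 0.45. These were Tap2, the peptide transporter subunit of the class I pathway, at 126 CPM in dasatinib 16x and 80.5 CPM in drug-free libraries (log2 change of 0.65 ± 0.05, adjusted p = 0.000247, edgeR), the immunoproteasome subunit Psmb8 (0.45), the further class II β chain gene H2-Eb2 (0.84) and the butyrophilin-like gene Btnl2 (1.11). Tap2 was also higher in dasatinib 1x against drug-free libraries (0.37 ± 0.05, adjusted p = 0.0137, edgeR), the only one of 7 called there. H2-Eb2 was at 11.8 to 15.4 CPM in dasatinib 16x and 6.13 to 8.37 CPM in drug-free libraries. Of 5 tested co-stimulatory genes and partners of Cd74, 1 was called in dasatinib 16x against drug-free libraries, where 16.1% of all genes were: Icosl, the ICOS ligand, rose to 7.48 CPM in dasatinib 16x, against 4.20 CPM in drug-free libraries (0.83 ± 0.19, adjusted p = 0.0172, edgeR).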

How the data were processed

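RNA sequencing of total RNA in 10 libraries was analysed from the counts per gene that the authors deposited, which are whole numbers and not normalised. Per the submitters' processing notes, CASAVA 1.7.0, Trimmomatic 0.33, TopHat2 2.0.12, BWA 0.7.10, SAMtools and HTSeq 0.6.1 were used with mm9. The strand setting and the annotation are not given in the sources used here. The labels call the 6 dasatinib libraries biological replicates, without saying from what stage they were kept apart, and the 2 parental ones replicates only, so the spread between the parental libraries may be technical. Set against counting error, the chi-square per degree of freedom was 1.91 between the parental libraries. Between dasatinib libraries of the same group it was 3.14 to 16.9. The fits nevertheless share an estimate of spread between groups, single DMSO libraries included.

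Tests used edgeR 4.0.16 in R 4.3.3 (TMM, filterByExpr with a minimum count of 10, robust quasi-likelihood test) on all 12282 genes that passed, with Benjamini-Hochberg adjustment at 0.05 over all of them. A gene is called where its adjusted p is under that threshold. The 3 comparisons of classes used 3 classes (biological coefficient of variation 15.3%, 7 degrees of freedom), and those with a single DMSO library used 5 groups (7.27%, 5 degrees of freedom). CPM were computed on TMM-effective library sizes, and CPM per kb with exon lengths of GENCODE vM21 (GRCm38). Over all tested genes the median log2 change lay between -0.01 and 0.013. Ratios of summed counts have exact 95% intervals, which cover counting error only. DESeq2 1.42.0, RLE scaling, no filter (18621 genes), other sets of reference libraries, a replicate block and leaving out each library were tried. The procedure was run on simulated counts in which only genes above 1 CPM in drug-free libraries were changed. That run covers neither changes in genes below this level nor the step difference.

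The members, lists, motifs and the naming rule were chosen with earlier results of these data known. The rule names all members, list members called in a comparison of the 3 classes and the 5 genes most like Cd74, and the text says where it names others. Some marker genes are not reported here.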

Additional observations from a re-analysis of the deposited data

Results flagged for a closer look

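The difference between the 16x and the 1x step differed between dasatinib and DMSO for 2 of the 8 tested genes, by a test of that difference itself across all genes. For Cd74 the step difference under dasatinib exceeded that under DMSO by 1.16 on the log2 scale (SE 0.19, adjusted p = 0.00661, edgeR): its level was 57.4 to 72.8 CPM in dasatinib 16x against 20.9 to 24.7 CPM in dasatinib 1x, and 35.8 CPM in DMSO 16x against 28.2 CPM in DMSO 1x. For H2-DMb2 the excess was 1.68 (SE 0.41, adjusted p = 0.029, edgeR), a call that DESeq2 did not make (adjusted p = 0.059) and that was lost without dasatinib 1x B or C or parental A or B (0.0551 to 0.0713, edgeR): its level was 3.23 to 4.90 CPM in dasatinib 16x against 1.03 to 1.39 CPM in dasatinib 1x, and 2.44 CPM in DMSO 16x against 2.30 CPM in DMSO 1x. Of all genes tested, 5.37% were called with an excess in this direction. Cd74 lies on chromosome 18, whose 291 other tested genes had a median log2 change of 0.31 in the same comparison. The part of this shift in the Cd74 excess was not tested. Each DMSO step is 1 library.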

How the results depend on the processing

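Counts of called members were the same or within 1.5 times under RLE scaling in all 8 comparisons. Under DESeq2 the count was 1 for dasatinib 1x against drug-free (0 in edgeR), 5 for dasatinib 16x against drug-free (3), 3 for dasatinib 16x against dasatinib 1x (1), 1 for dasatinib 1x against DMSO 1x (4), 1 for DMSO 1x against parental (2) and 1 for the step difference (2). DESeq2 gave no adjusted p to H2-Eb1 in dasatinib 1x against DMSO 1x and in both DMSO groups against parental, where edgeR called it. With no filter it was 2 for dasatinib 16x against dasatinib 1x and 5 for dasatinib 16x against DMSO 16x (3). With only the 2 classes compared it was 1 for dasatinib 16x against drug-free and 3 for dasatinib 16x against dasatinib 1x. With no filter, 1.1% of all genes were called in dasatinib 16x against dasatinib 1x. No share of all genes called is printed for DESeq2, the 2 classes alone, the replicate block, the 5-group fit or the libraries left out. Changes in those counts of members cannot be told apart from a change in the share of all genes called. Their cause was not tested.

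Against the DMSO libraries alone, 7 members were called in dasatinib 1x (6 lower) where 33.8% of all genes were, and 5 in dasatinib 16x where 36.8% were, and H2-DMa turned to -0.13 in dasatinib 16x. Against parental libraries alone, dasatinib 1x gave 0.23 for Cd74, 0.88 for H2-Eb1 and 0.26 for H2-DMb2 on the log2 scale, and dasatinib 16x gave 2.88 for H2-Eb1 (adjusted p = 0.0324, edgeR) and 0.39 for H2-Oa, all opposite in sign to the drug-free comparison.

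The letters A to C are not stated to pair samples. Same-letter dasatinib libraries deviated together with r of 0.104, 0.051 and 0.065, and each correlated best with its own letter. For different letters r ran from -0.079 to 0.014. Whether the letters pair samples was not tested. With the replicate block in the 8 lettered libraries, 0, 4 and 3 members were called (dasatinib 1x and 16x against parental, 16x against 1x). The same 8 libraries without the block, a setting added after the data were seen, gave 0, 4 and 3 as well, but of the 4 the block called H2-Ob (0.18, adjusted p = 0.0319, edgeR) and not H2-Eb1 (2.67, adjusted p = 0.0894), and without it H2-Eb1 was called (2.88, adjusted p = 0.0368) and H2-Ob was not (0.14, adjusted p = 0.0784). The count for 16x against 1x was 3 in the fit of 5 groups too, also added later. Signs opposite to the drug-free comparison under the block were Cd74 0.29, H2-Eb1 0.73 and H2-DMb2 0.30 in dasatinib 1x and H2-Eb1 2.67 and H2-Oa 0.31 in dasatinib 16x. Without it they were 0.23, 0.89, 0.26, 2.88 and 0.39. No paired analysis was possible for comparisons with a DMSO library because those carry no letter.

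Leaving out 1 library at a time, the count ranged from 0 to 1 in dasatinib 1x against drug-free (1 without DMSO 16x or parental B), 1 to 4 in dasatinib 16x against drug-free (1 without dasatinib 16x B), 0 to 3 in dasatinib 16x against dasatinib 1x (0 without any 1 dasatinib 1x library, 3 without DMSO 16x, 2 without parental B), 2 to 5 in dasatinib 1x against DMSO 1x (2 without dasatinib 1x B or C or either parental library), 3 to 4 in dasatinib 16x against DMSO 16x, 0 to 4 in DMSO 1x against parental (0 without either parental library, 1 without dasatinib 1x A, 4 without dasatinib 16x A), 4 to 6 in DMSO 16x against parental and 1 to 2 in the step difference. Signs turned for uncalled members alone, whose log2 changes over the libraries left out ranged from -0.30 to 0.021 for Cd74 in dasatinib 1x against drug-free (turned without DMSO 16x), from -0.37 to 0.80 for H2-Eb1 and -0.29 to 0.27 for H2-Oa in dasatinib 16x against drug-free (turned without dasatinib 16x B, DMSO 1x or DMSO 16x), from -0.046 to 0.038 for H2-Ob in dasatinib 16x against dasatinib 1x (turned without dasatinib 1x A or 16x C), from -0.45 to 0.40 for H2-DMb1 in DMSO 1x against parental (turned without parental A), and, in the step difference, from -0.23 to 0.10 for H2-DMb1 (turned without dasatinib 1x B, 16x A or 16x C) and, with no filter, a setting added after the data were seen for H2-Aa and H2-Ab1, from -0.44 to 4.03 for H2-Aa (turned without dasatinib 1x A or B or 16x B). A DMSO comparison cannot be refitted without its only DMSO library. Depth limits H2-Aa, H2-Ab1, H2-Eb1 and Ciita, which have under 10 counts in most dasatinib libraries.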
